A study of Mus musculus with 8 samples.

Results

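The genes described here are 47 components of the TGF-beta, activin and BMP pathway. They were chosen by gene symbol, with earlier results of these data known. All 47 were found among the 23337 gene symbols of the table. RNA sequencing measured them in MOE cells, an FVB mouse line of oviductal epithelium, the mouse counterpart of the epithelium of the human fallopian tube. Of 8 libraries, 4 came from cells on 2D collagen and 4 from cells on 3D collagen gels. All cells were taken with trypsin at confluence and then spent 6 h on the collagen in MOE medium lacking EGF. The comparison asks which transcripts of the pathway differ between the forms of collagen. The labels name no separate cultures behind the replicate numbers, so the p-values reflect only how these libraries vary, which may be technical.

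TGF-beta, activins and bone morphogenetic proteins (BMPs) are secreted dimeric ligands that bind pairs of type I and type II serine/threonine kinase receptors on the cell surface. TGF-beta and activin receptors phosphorylate SMAD2 and SMAD3, BMP receptors phosphorylate SMAD1, SMAD5 and SMAD9, and both kinds of SMAD enter the nucleus with the shared partner SMAD4. Latent TGF-beta is held in the extracellular matrix by latent TGF-beta binding proteins (LTBPs), follistatins trap activins outside the cell, and the inhibitory SMAD6 and SMAD7 are induced by the pathway and restrain it. In epithelia the pathway is known for slowing growth and for driving matrix production and epithelial-mesenchymal transition.

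Cells on 3D collagen had less mRNA for the activin traps Fst and Fstl3, the matrix-bound ligand carriers Ltbp3 and Ltbp4, the inhibitory SMAD Smad6 and the feedback regulator Pmepa1, with mean levels of 1668 against 716 normalized counts for Fstl3 and 4279 against 1645 for Pmepa1. They had more mRNA for the TGF-beta co-receptor Tgfbr3. Of the 47 genes, 42 had at least 10 normalized counts in at least 4 libraries and were tested. In limma, at a Benjamini-Hochberg adjusted p under 0.05, 1 of the 42 was higher and 6 were lower, 16.7% in either direction. The same test called 5.72% of all 11820 genes tested, 2.33% higher and 3.39% lower. At an unadjusted p under 0.05 in limma there were 18 of the 42 members (42.9%) and 24.2% of all genes tested. Because the members were chosen with earlier results of these data known, these shares are a description and no independent support. The 4 libraries of one group lay wholly above or below those of the other for 5 members that were higher (Tgfbr3, Smad1, Id1, Id2 and Tgif1) and 7 that were lower (Fst, Fstl1, Fstl3, Smad6, Pmepa1, Ltbp3 and Ltbp4), where the shares over all genes tested were 8.05% and 10.4% (18.4% together). The fold changes fell on both sides of 0, with 20 above, 22 below and a median log2 fold change of −0.09 against 0.02 for all genes tested. A log2 fold change is the difference, 3D minus 2D, of log2(normalized count + 1), and this scale understates the change of genes with low counts.

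**Figure D1:**
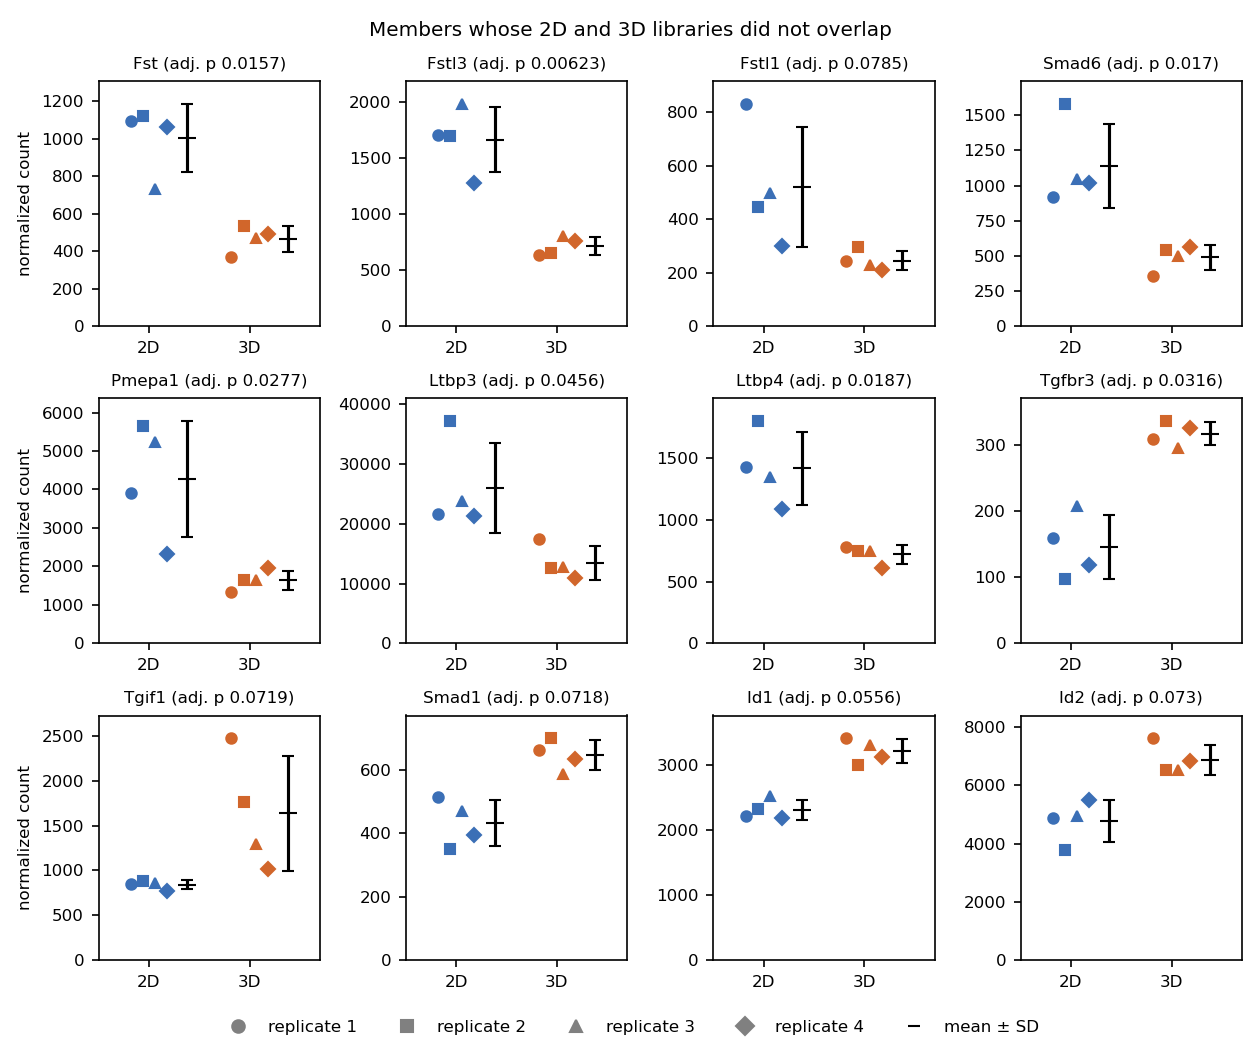
Normalized counts (vertical axes, starting at 0) of the 12 members whose 2D and 3D libraries did not overlap, with 1 point per library, a symbol for each replicate number, and the mean ± SD of 4 libraries beside the points. The first 7 panels are lower on 3D collagen and the last 5 higher, and the adjusted p above each panel is from limma over all genes tested.

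The libraries held 15692699 to 25862036 reads and detected 14064 to 14598 genes. A normalized count is a read count divided by 1 size factor per library. The keratins Krt7, Krt8, Krt18 and Krt19 and the oviduct transcription factor Pax8 were abundant in every library, with at least 7427 normalized counts, while the epithelial genes Epcam (0 to 29.9), Cdh1 (17.4 to 104), Ovgp1 (1.19 to 27.2) and Muc1 (5.60 to 17.4) were low. The leukocyte marker Ptprc stayed at or under 3.73 and the fibroblast marker Lum at or under 1.13. Other genes of these marker lists were higher. Of 6 leukocyte and 7 fibroblast markers, 2 and 3 had enough counts to be tested. Of these, 1 fibroblast marker was called higher on 3D collagen in limma. Of 8 tested markers of oviductal epithelium, 1 was called lower in limma. Summed over each list, the reads scaled to library depth (CPM) were 20.8 to 39.7 for leukocytes and 3.44 to 19.5 for fibroblasts. For oviductal epithelium they were 10526 to 11745 on 2D and 8471 to 10628 on 3D collagen, and this difference was not tested. Libraries stood apart in ways the groups do not explain. Of the 42 tested members, 14 had their lowest 2D value in 2D replicate 2, a count near an even spread over 4 libraries. The median GC content of these 14 was 44.8% against 53.4% for the other 28. In both groups, 12 members were lowest in the library numbered 4 and 0 were highest there. Neither count was set against all genes tested, so whether it is particular to the members was not tested. Transcripts of liver markers summed to 21.9 and 23.3 CPM (a gene's reads scaled to the library's depth) in 2D replicate 2 and 3D replicate 1 and to 0.105 to 6.81 in the other 6 libraries, and the part of these differences in the results was not tested. Without 2D replicate 2, 6 of the 7 called members still passed, and Ltbp3 did not (adjusted p = 0.0524, limma). With both libraries numbered 4 left out, Tgfbr3 (0.0942) and Ltbp3 (0.0903) no longer passed in limma. In RNA from bulk cultures, fewer cells that express a gene and less of its RNA per cell cannot be told apart.

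Per kilobase of exons, the 3 Id target genes and Ltbp3 were the most abundant members in both groups, in a different order. The length counts the exon bases of all annotated transcripts of a gene, not those of the transcript expressed here. Comparisons between genes per length are therefore approximate. On 2D collagen Ltbp3 had the highest mean, 2862 ± 833 normalized counts per kb (SD, n = 4), above Id3 (2105 ± 228), Id1 (1999.9 ± 132) and Id2 (1959 ± 294). On 3D collagen Id2 (2819.6 ± 215), Id1 (2774 ± 160) and Id3 (2475 ± 265) were above Ltbp3 (1485 ± 313). The ligand Tgfb3 came next in both groups (1248 ± 409 and 1315 ± 446). The type I receptor gene Tgfbr1 (33.8, mean of 8 libraries) was far below its type II partner Tgfbr2 (819), and Acvr2b (16.3), Bmpr2 (8.04), Inhba (4.73) and Grem1 (4.09) were the least abundant of the tested members. The 5 untested members were nearly absent. Bmpr1b, a BMP type I receptor, had no read in any library. Bmp7, the activin subunit Inhbb and the pseudoreceptor Bambi had at most 1 read in any library, and Bmp2 at most 2. A count of 3 reads, the limit that a count of 0 allows, corresponds to 0.116 to 0.191 CPM in these libraries and covers counting error only.

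**Figure D2:**
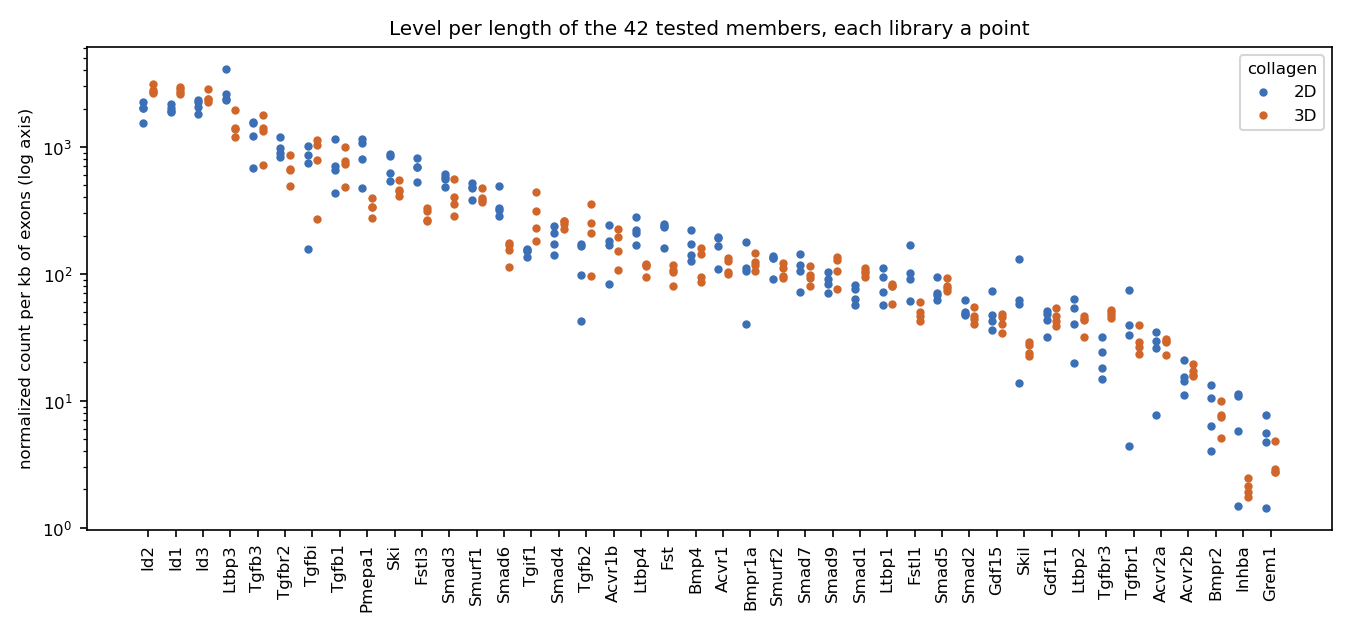
Level per length of the 42 tested members, as normalized counts per kb of exons on a log axis, with 1 point per library coloured by collagen form. The 3 Id genes and Ltbp3 lie highest, and Inhba and Grem1 lie lowest.

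All 3 TGF-beta ligand genes were expressed. None of them passed in the main limma analysis, which had no replicate block (0 at an unadjusted p under 0.05), in edgeR or in DESeq2. Tgfb1 (chr7:25687002-25705077, plus strand, mm10) had 3299, 5841, 3577 and 2185 normalized counts in 2D replicates 1 to 4 and 5005, 3889, 3717 and 2429.8 in 3D replicates 1 to 4, with a log2 fold change of 0.06 (95% interval −0.64 to 0.76, adjusted p = 0.933, limma). The groups overlapped throughout, and the library numbered 4 was lowest in each. Tgfb3 (chr12:86056745-86079041, minus strand) had 5182, 4146, 5269 and 2293 on 2D and 6068, 4506, 4795 and 2428 on 3D collagen, with a log2 fold change of 0.07 (interval −0.69 to 0.84, adjusted p = 0.918, limma). Antisense gene models cover 12.4% of the exon bases of Tgfb3, and reads of antisense partners cannot be told apart because the strand setting is not given. The direction of Tgfb1 and of Tgfb3 turned below 0 on leaving out some single libraries, to as low as −0.17 and −0.20.

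Tgfb2 (chr1:186622792-186705989, minus strand) had the widest interval of the 3 ligands. It had 994, 569, 956 and 245 normalized counts on 2D and 2068, 1222, 1442 and 559 on 3D collagen. The upper 3D libraries lay above the 2D range, yet the groups overlapped, with 3D replicate 4 below 2D replicates 1, 2 and 3. The log2 fold change was 0.98 (SE 0.51, 95% interval −0.16 to 2.13) and did not pass the test (adjusted p = 0.274, limma). It was 0.55 without 2D replicate 4 and 1.35 without 3D replicate 4, and neither value passed in limma. With a block for the replicate number the adjusted p was 0.0102 in limma, but the numbers were not taken to pair the libraries. Within the summed level per length of the 3 ligands, Tgfb2 took 7.28%, 3.96%, 6.79% and 3.67% in 2D replicates 1 to 4 and 11.4%, 9.12%, 10.4% and 7.44% in 3D replicates 1 to 4. These shares did not overlap between the groups (5.42% ± 1.87 against 9.57% ± 1.69, SD, n = 4) and were not tested. Tgfb3 had the largest mean share per length in both groups (59.3% ± 7.15 and 57.2% ± 1.48), with 49.4% in 2D replicate 2. Tgfb1 made up 35.3% ± 8.74 and 33.2% ± 2.88. The order of the mean shares was the same without the division by length, while that of some single libraries was not. With the lengths of the transcripts expressed here the order was not tested. By counts alone the mean share of Tgfb3 was 49.1% on 2D and 46.5% on 3D collagen, and that of Tgfb1 43.2% and 40.2%. By counts Tgfb1 exceeded Tgfb3 in 2D replicate 2 (55.3% against 39.3%) and 3D replicate 4 (44.86% against 44.83%).

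**Figure D3:**
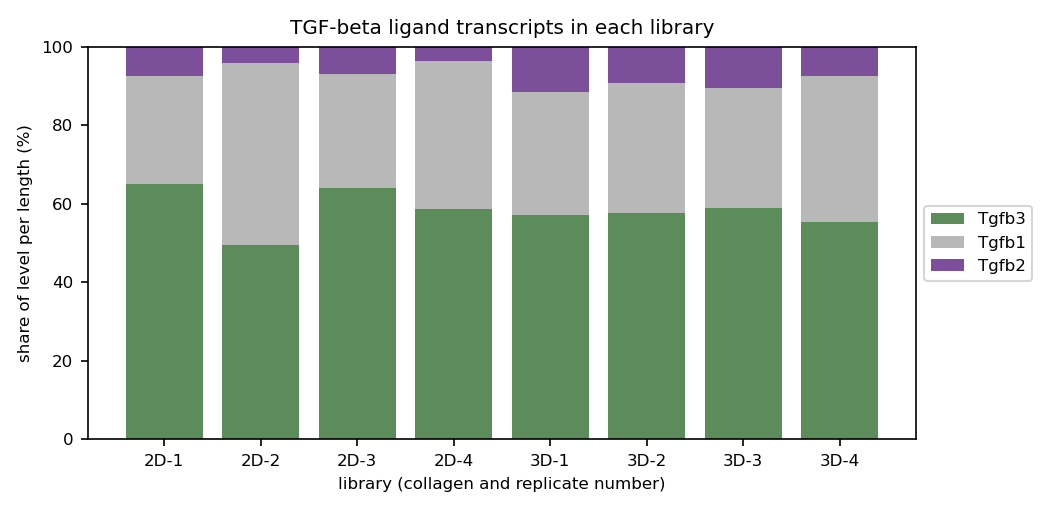
Stacked bars of the share (%) of each TGF-beta ligand in their summed level per length, 1 bar per library, with 2D libraries on the left. The Tgfb2 share lies between 3.67% and 7.28% in the 2D libraries and between 7.44% and 11.4% in the 3D libraries.

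Of the other ligands, Bmp4 had 165 ± 42.5 normalized counts per kb on 2D and 120 ± 35.5 on 3D collagen, against 119 ± 61.1 and 228 ± 108 for Tgfb2, and Inhba, Gdf11 and Gdf15 were lower than both in each group. Inhba (chr13:16011851-16031621, plus strand), whose product forms activin A, had 72.0, 9.56, 37.2 and 69.9 normalized counts on 2D and 15.9, 12.2, 11.2 and 13.7 on 3D collagen. The 2D libraries were uneven: replicates 1, 3 and 4 lay above every 3D library, while replicate 2 was below them all. The log2 fold change was −1.43 (SE 0.58, interval −2.74 to −0.11) and did not pass the test (adjusted p = 0.176, limma). Inhba passed in DESeq2 (−1.83, adjusted p = 0.0254) and after GC correction (−1.70, adjusted p = 0.0289, limma). It was −2.04 without 2D replicate 2, with an adjusted p in limma of 0.0148. Bmp4, a BMP ligand, had 387, 285, 499.9 and 315 on 2D and 195, 211, 320.0 and 357 on 3D collagen. Its groups overlapped, with a log2 fold change of −0.47 (interval −1.08 to 0.13, adjusted p = 0.319, limma). The stress-induced ligand Gdf15 had 78.9, 87.2, 67.2 and 135 on 2D and 89.5, 84.7, 63.4 and 75.0 on 3D collagen, and only 2D replicate 4 lay above 100 normalized counts. Its log2 fold change was −0.20 (interval −0.83 to 0.44, adjusted p = 0.719, limma), and that of Gdf11, a ligand related to myostatin, was 0.08 (interval −0.43 to 0.60, adjusted p = 0.858, limma). Inhbb, which encodes the subunit of activin B, had 1 read in the 2D libraries together and 0 in the 3D libraries.

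Among the receptors, Tgfbr3, which encodes betaglycan, a co-receptor that presents TGF-beta 2 to the signalling receptors and also binds inhibin, was the member that rose. Tgfbr3 (chr5:107106570-107289629, minus strand) had 159, 96.8, 207 and 119 normalized counts on 2D and 309, 336, 296 and 326 on 3D collagen. The 3D libraries lay close together and all above the 2D libraries, of which replicate 2 was the lowest. The mean was 145 ± 48.5 on 2D and 317 ± 17.8 on 3D collagen (SD, n = 4 per group, as for all members below), and the log2 fold change was 1.18 (SE 0.26, interval 0.60 to 1.75, adjusted p = 0.0316, limma). The call was lost without any one of 2D replicate 4 (adjusted p = 0.0640, limma), 3D replicate 1 (0.0871), 3D replicate 2 (0.105), 3D replicate 3 (0.102) or 3D replicate 4 (0.0648), with log2 fold changes of 1.00 to 1.36 on leaving out each library. A gene model on the same strand covers 4.54% of its exon bases.

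None of the 8 tested type I and type II receptor genes passed in the main limma analysis, edgeR or DESeq2. Tgfbr2 and Acvr1 had an unadjusted p under 0.05 in limma, and each passed in 1 of 22 alternative analyses. Tgfbr2 (chr9:116084293-116175360, minus strand), the type II receptor that binds TGF-beta, had 7937, 7288, 9709 and 6742 on 2D and 5496, 7090.3, 5397 and 3999 on 3D collagen. The groups overlapped, since 3D replicate 2 exceeded 2D replicate 4, and the log2 fold change was −0.54 (interval −0.99 to −0.09, adjusted p = 0.140, limma). Tgfbr1, the type I receptor it activates, had 486, 28.7, 259 and 217 on 2D and 174, 153, 190.3 and 259.7 on 3D collagen. In 2D replicate 2 it stood far below the other libraries, and without that library the log2 fold change went from 0.18 to −0.66, with neither value past the threshold. The activin and BMP type I receptor gene Acvr1 had a log2 fold change of −0.49 (interval −0.97 to −0.01, adjusted p = 0.195, limma), with 531 to 944 normalized counts on 2D and 481 to 643 on 3D collagen. The BMP type I receptor gene Bmpr1a (0.35, interval −0.53 to 1.23) and the activin type I receptor gene Acvr1b (0.06, interval −0.73 to 0.84) had intervals of the log2 fold change that include 0. The same was so for the type II receptor genes Bmpr2 (−0.07, interval −0.95 to 0.82), Acvr2a (0.37, interval −0.62 to 1.36) and Acvr2b (0.16, interval −0.44 to 0.77). Without 2D replicate 2 the values of Bmpr1a and Acvr2a were −0.07 and −0.11. With library size alone that of Bmpr2 was 0.11, and that of Acvr1b was −0.25 without 2D replicate 4. Orc4, whose exons overlap 7.84% of those of Acvr2a in antisense, had 86.0 to 521 normalized counts.

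Of 4 secreted antagonists and follistatin family members, Fst and Fstl3 fell. Fst (chr13:114452290-114458951, minus strand), which encodes the high-affinity activin trap follistatin, had 1096, 1123, 732 and 1063 normalized counts on 2D and 370.3, 535, 471 and 493 on 3D collagen. The groups did not overlap, and 2D replicate 3 was the lowest on 2D collagen. Fst fell from 1004 ± 182 to 467 ± 70.0, and its log2 fold change was −1.09 (SE 0.19, interval −1.52 to −0.66, adjusted p = 0.0157, limma). The adjusted p in limma was 0.0514 without 3D replicate 1 and 0.0606 without 3D replicate 3. Fstl3 (chr10:79777272-79782630, plus strand), which encodes a follistatin-like protein that also binds activins, had 1706, 1697, 1988 and 1281 on 2D and 641, 652, 808 and 765 on 3D collagen. Even the lowest 2D library exceeded the highest 3D library by a wide margin. Fstl3 fell from 1668 ± 291 to 716 ± 82.6, and its log2 fold change was −1.21 (SE 0.17, interval −1.59 to −0.83, adjusted p = 0.00623, limma). It passed the test on leaving out any of the 8 libraries (adjusted p from 0.00515 to 0.0311, limma). Exons of the antisense gene Prss57 cover 47.3% of its exon bases, and Prss57 itself had 2.74 to 16.7 normalized counts.

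Fstl1 (chr16:37776873-37836514, plus strand), which encodes a secreted glycoprotein related to follistatin in sequence, had 831, 447, 499.9 and 300.3 normalized counts on 2D and 245, 295, 230.4 and 210.3 on 3D collagen. The groups were separate, though narrowly, with 2D replicate 4 next to 3D replicate 2. The log2 fold change was −1.0 (SE 0.29, interval −1.65 to −0.34) and did not pass the test (adjusted p = 0.0785, limma). It passed in DESeq2 (0.00939), after GC correction (0.0365) and without 2D replicate 4, with a log2 fold change of −1.23 and an adjusted p in limma of 0.0364. Grem1, which encodes the BMP antagonist gremlin, had 5.97 to 32.1 on 2D and 11.3 to 20.1 on 3D collagen and a log2 fold change of −0.36 (interval −1.47 to 0.75).

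Of the 4 latent TGF-beta binding protein genes, Ltbp3 and Ltbp4 were lower on 3D collagen. Ltbp3 (chr19:5740904-5758532, plus strand), by far the most abundant of the 4 per length, had 21570.1, 37178, 23724 and 21354 normalized counts on 2D and 17518, 12615, 12823 and 10899 on 3D collagen. The groups did not overlap, and 2D replicate 2 stood well above the rest. Ltbp3 fell from 25956 ± 7557 to 13464 ± 2837, and its log2 fold change was −0.93 (SE 0.23, interval −1.44 to −0.42, adjusted p = 0.0456, limma). This call lay near the threshold and was lost on leaving out any of the 8 libraries (adjusted p from 0.0524 to 0.142, limma). In edgeR's quasi-likelihood test on the recovered reads the adjusted p was 0.0510. Ltbp4 (chr7:27305136-27337692, minus strand) had 1425, 1801, 1350.1 and 1088 on 2D and 778, 746, 751 and 611 on 3D collagen, again with no overlap and with a narrow 3D group. Ltbp4 fell from 1416 ± 295 to 721 ± 75.0, and its log2 fold change was −0.96 (SE 0.18, interval −1.35 to −0.56, adjusted p = 0.0187, limma). The adjusted p in limma was 0.0534 without 3D replicate 1, 0.0607 without 3D replicate 2 and 0.0667 without 3D replicate 3. Ltbp1, which carries latent TGF-beta in many tissues, had a log2 fold change of −0.12 (interval −0.63 to 0.39), and Ltbp2, whose product does not bind latent TGF-beta, one of 0.01 (interval −0.76 to 0.78). An antisense gene model covers 9.34% of the exon bases of Ltbp2.

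None of the 6 genes of receptor-activated and common SMADs passed in the main limma analysis or in edgeR. There, 3 had an unadjusted p under 0.05 in limma (Smad1, Smad3 and Smad4), and Smad1 passed in DESeq2. Smad1, which carries BMP signals, had 515, 352, 471 and 393 normalized counts on 2D and 664, 701, 588 and 633 on 3D collagen. All 3D libraries lay above all 2D libraries, with a log2 fold change of 0.59 (SE 0.17, interval 0.21 to 0.97, adjusted p = 0.0718, limma), and the adjusted p was 0.0161 in DESeq2 and 0.0472 after GC correction. Smad3, which carries TGF-beta and activin signals, had 2649, 3218, 3391 and 3071 on 2D and 3070.1, 2224, 1949 and 1577 on 3D collagen. Only 3D replicate 1 lay within the 2D range, and the log2 fold change was −0.52 (interval −0.98 to −0.06, adjusted p = 0.162, limma). The log2 fold change was 0.41 (interval 0.00 to 0.81, adjusted p = 0.202, limma) for Smad4, the shared partner. It was −0.17 (interval −0.55 to 0.22) for Smad2, 0.14 (interval −0.25 to 0.53) for Smad5 and 0.33 (interval −0.16 to 0.82) for Smad9, all with intervals that include 0.

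Of 8 genes of inhibitory SMADs and feedback regulators, Smad6 and Pmepa1 fell. Smad6 (chr9:63953076-64022059, minus strand), the inhibitory SMAD that acts mainly on BMP signals, had 918, 1580.3, 1046 and 1021 normalized counts on 2D and 359, 542, 497 and 561 on 3D collagen. The groups did not overlap, and 2D replicate 2 was the highest. Smad6 fell from 1141 ± 298 to 490.0 ± 91.4, and its log2 fold change was −1.21 (SE 0.22, interval −1.69 to −0.72, adjusted p = 0.0170, limma). The adjusted p in limma was 0.0509 without 3D replicate 1 and 0.0634 without 3D replicate 3. Smad7, the inhibitory SMAD that acts on both branches, had 533, 641, 479 and 325 on 2D and 359, 522, 416 and 439.9 on 3D collagen. Its groups overlapped, and the log2 fold change of −0.16 (interval −0.68 to 0.36, adjusted p = 0.723, limma) turned to 0.016 with library size as the only scaling. A direct test of whether Smad6 and Smad7 changed unequally was not made.

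Pmepa1 (chr2:173224458-173276533, minus strand), a TGF-beta-induced membrane protein gene whose product restrains SMAD activation, had 3910.0, 5659.5, 5231 and 2314 normalized counts on 2D and 1344, 1636, 1647 and 1952 on 3D collagen. The groups were separate, with 2D replicate 4 the nearest to the 3D libraries. Pmepa1 fell from 4279 ± 1507 to 1645 ± 248, and its log2 fold change was −1.31 (SE 0.27, interval −1.92 to −0.70, adjusted p = 0.0277, limma). The adjusted p in limma was 0.0524 without 2D replicate 1 and 0.0649 without 2D replicate 3. Without 3D replicates 1, 2 and 3 in turn it was 0.0845, 0.0816 and 0.0903. Skil, which encodes the SMAD co-repressor SnoN, had 1266, 133, 559 and 599 on 2D and 268, 217, 231 and 283 on 3D collagen. As for Inhba and Tgfbr1, 2D replicate 2 was below every other library. The other 2D libraries of Skil exceeded all 3D libraries. The log2 fold change was −0.97 (interval −2.25 to 0.31, adjusted p = 0.333, limma), and without 2D replicate 2 it was −1.59 with an adjusted p in limma of 0.0215.

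Tgif1, which encodes a homeodomain co-repressor of SMAD2 and SMAD3, had 844, 885, 862 and 768 normalized counts on 2D and 2476, 1758, 1295 and 1011 on 3D collagen. The 2D libraries lay close together, and the 3D libraries were spread above them. The log2 fold change was 0.88 (SE 0.25, interval 0.32 to 1.45, adjusted p = 0.0719, limma), and it was 1.08 with an adjusted p in limma of 0.0366 without 3D replicate 4. Tgif1 also passed with library size alone (0.0264), in edgeR (0.0493) and in DESeq2 (0.00924). Ski, a co-repressor related to SnoN, had a log2 fold change of −0.60 (interval −1.02 to −0.17, adjusted p = 0.0976, limma) and passed in DESeq2 (0.0346). The ubiquitin ligase genes Smurf1 (−0.19, interval −0.53 to 0.14) and Smurf2 (−0.22, interval −0.62 to 0.19), whose products mark receptors and SMADs for degradation, had intervals that include 0.

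**Figure D4:**
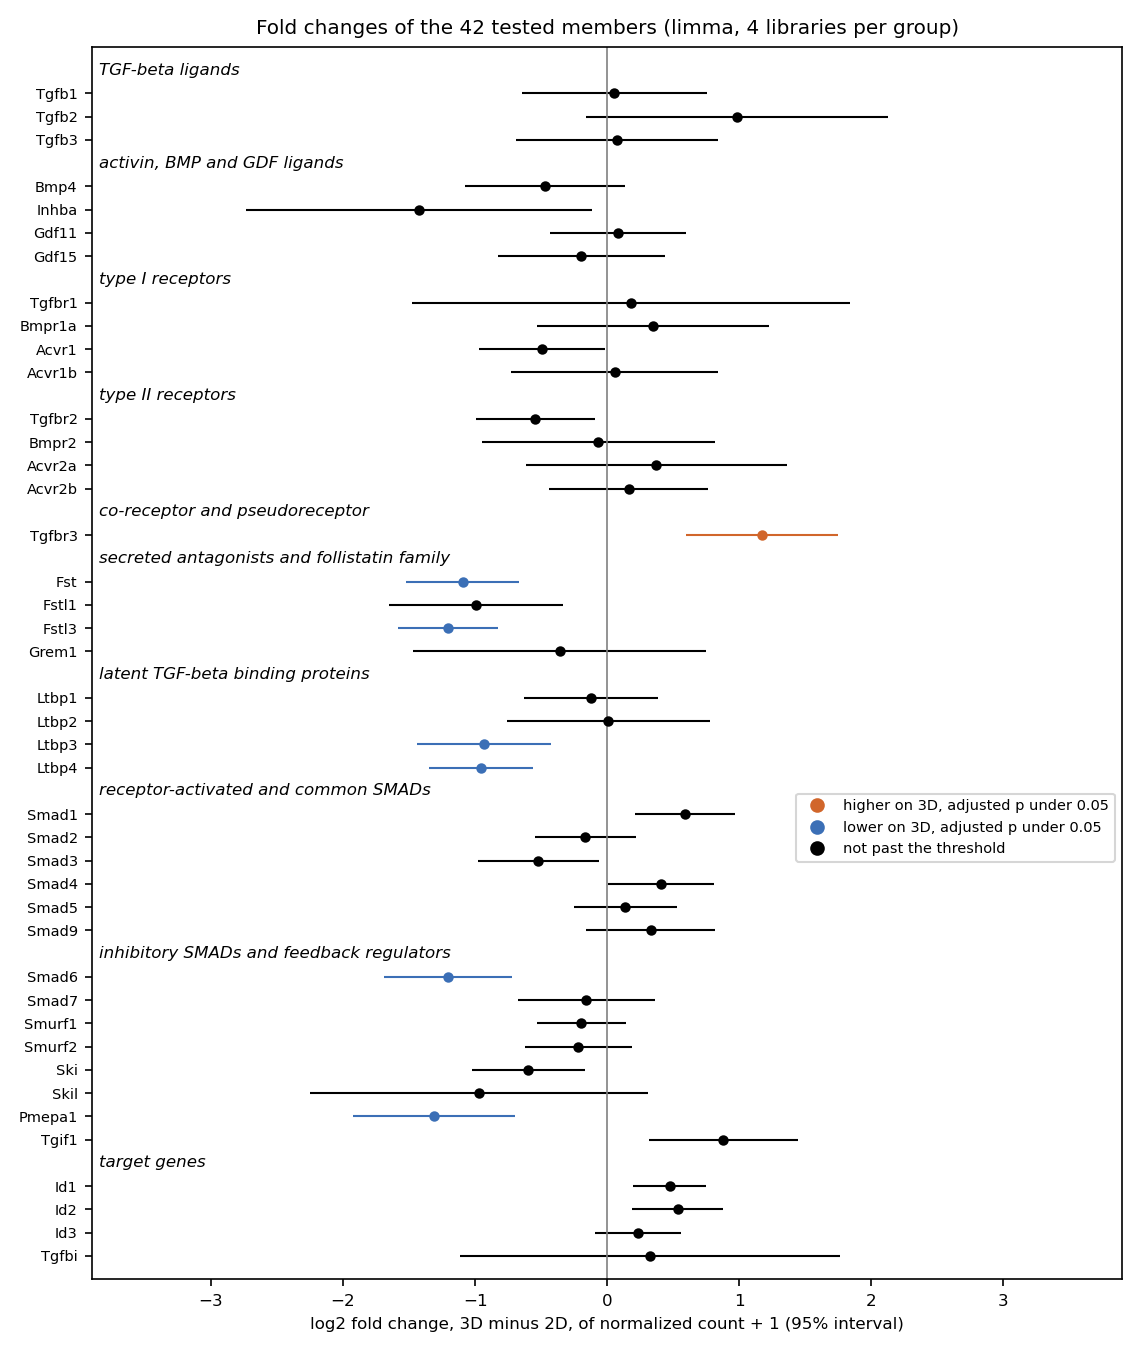
Log2 fold changes (3D minus 2D, horizontal axis) of the 42 tested members, grouped by role, with points for the limma estimate and lines for its 95% interval. The 6 members lower on 3D collagen belong to the follistatin family, the latent binding proteins and the feedback regulators, and Tgfbr3 is the 1 higher member.

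Promoter sequences are given for the 4 of the 7 called members that the RefSeq promoter table (GRCm38.p6, the mm10 coordinates) lists, to show the start regions of genes that were lower on 3D collagen. Each window of 260 bases runs from 250 bases before the transcript start to 10 bases from the start on, 5′ to 3′ on the gene's strand. Capitals mark matches, on either strand, to 3 short motifs: GTCTAGAC, the palindromic SMAD binding element, CAGAC, the core of the CAGA box, which reads GTCTG on the opposite strand, and GGCGCC, a GC-rich element that BMP-regulated SMADs bind. GTCTAGAC cannot contain the other motifs. The windows are chr9:64022050-64022309 (minus strand) for Smad6, chr10:79777024-79777283 (plus strand) for Fstl3, chr19:5740650-5740909 (plus strand) for Ltbp3 and chr7:27333654-27333913 (minus strand) for Ltbp4, the last at 1 of 3 starts listed and within the span of a longer transcript.
Smad6: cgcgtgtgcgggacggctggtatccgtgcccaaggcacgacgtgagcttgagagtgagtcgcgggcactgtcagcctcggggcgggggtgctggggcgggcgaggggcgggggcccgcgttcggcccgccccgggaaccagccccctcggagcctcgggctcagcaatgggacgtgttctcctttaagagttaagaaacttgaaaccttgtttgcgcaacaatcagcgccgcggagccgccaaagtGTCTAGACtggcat
Fstl3: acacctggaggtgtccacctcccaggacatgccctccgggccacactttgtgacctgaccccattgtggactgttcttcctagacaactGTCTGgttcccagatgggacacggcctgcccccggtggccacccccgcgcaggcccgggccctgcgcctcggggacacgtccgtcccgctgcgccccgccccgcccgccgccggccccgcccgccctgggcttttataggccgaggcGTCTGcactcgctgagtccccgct
Ltbp3: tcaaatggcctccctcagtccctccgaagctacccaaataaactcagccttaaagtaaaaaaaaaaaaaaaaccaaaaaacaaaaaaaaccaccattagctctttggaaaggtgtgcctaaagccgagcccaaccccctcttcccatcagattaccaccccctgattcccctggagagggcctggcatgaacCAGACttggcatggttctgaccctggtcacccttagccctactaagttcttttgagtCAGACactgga
Ltbp4: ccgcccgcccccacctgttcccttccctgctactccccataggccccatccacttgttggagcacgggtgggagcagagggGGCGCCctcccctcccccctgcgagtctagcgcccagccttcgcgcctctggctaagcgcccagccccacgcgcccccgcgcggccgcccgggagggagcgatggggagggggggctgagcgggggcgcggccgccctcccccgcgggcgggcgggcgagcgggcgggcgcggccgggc

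The Smad6 window holds GTCTAGAC across the start, at letters 247 to 254. In the Fstl3 window GTCTG stands at letters 90 to 94 and 237 to 241. CAGAC stands at letters 193 to 197 and 250 to 254 of the Ltbp3 window, and GGCGCC at letters 82 to 87 of the Ltbp4 window. The Ltbp4 window at the outermost listed start (chr7:27337603-27337862, minus strand) held none of the 3 motifs. The remaining Ltbp4 window overlaps the printed one and holds the same GGCGCC. GTCTAGAC occurred in 58 of all 32851 windows in the table (0.177%) and in 1 of the 48 windows of members (2.08%), that of Smad6. CAGAC was common, in 44.0% of all windows and 47.9% of the members' windows. GGCGCC occurred in 9.96% of all windows and in 12 of the members' 48 (25.0%), some of which overlap each other. Of the 47 members, 35 had an entry. A match is a description of letters and does not show that a factor binds there.

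The 4 members listed as target genes, Id1, Id2, Id3 and Tgfbi, were high in both groups, and none of them passed in the main limma analysis. Smad6 and Pmepa1, also induced by the pathway, were listed with the feedback regulators and were lower on 3D collagen. Both Id1 and Id2 had an unadjusted p under 0.05 in limma and passed in DESeq2, and Id1 also passed in edgeR. Id1 (chr2:152736251-152737410, plus strand), a BMP-induced inhibitor of basic helix-loop-helix factors, had 2222, 2338, 2529 and 2191 normalized counts on 2D and 3427, 3012, 3309 and 3126 on 3D collagen. Every 3D library exceeded every 2D library, with a log2 fold change of 0.47 (SE 0.12, interval 0.20 to 0.75, adjusted p = 0.0556, limma). It passed the threshold with edgeR's TMM scaling in limma (0.0403), with library size alone (0.0160), with upper-quartile scaling (0.0492), after GC correction (0.0157) and in edgeR (0.0464) and DESeq2 (0.00183). Id2 had 4895, 3779, 4944 and 5486 on 2D and 7631, 6523, 6513 and 6830.3 on 3D collagen. The groups were again separate, with a log2 fold change of 0.54 (SE 0.15, interval 0.19 to 0.88, adjusted p = 0.0730, limma), and the adjusted p was 0.0488 with library size alone and 0.0147 in DESeq2. Id3 had 3655, 4158, 3246 and 4021 on 2D and 4056, 4283, 4260.4 and 5128 on 3D collagen, and its groups overlapped (0.23, interval −0.09 to 0.56, adjusted p = 0.354, limma). Tgfbi, a TGF-beta-induced matrix protein gene, had 2784, 3269, 3807 and 593 on 2D and 4299, 2962, 3871 and 1023 on 3D collagen. The library numbered 4 was far below the rest in each group, and the log2 fold change was 0.32 (interval −1.11 to 1.76, adjusted p = 0.800, limma).

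The wider pathway was followed with 114 further genes, of which 75 were tested, with a median log2 fold change of −0.09. In limma 0 were higher and 6 were lower (8.0%), against 5.72% of all genes tested (2.33% higher and 3.39% lower). At an unadjusted p under 0.05 in limma 8 were higher and 15 lower, where the share over all genes tested was 24.2%. The adjusted counts of further pathway genes were 0 and 7 in edgeR and 1 and 10 in DESeq2. Of 21 tested TGF-beta target genes outside the members, 4 fell. Pdgfb, a growth factor gene, had 3269, 5560.4, 3324 and 3073 normalized counts on 2D and 1401, 1621, 1360.1 and 842 on 3D collagen, and its log2 fold change was −1.54 (SE 0.25, adjusted p = 0.0126, limma). Its groups were well apart, and the call held in all 22 alternative analyses. Ctgf, a matricellular protein gene (−2.76, adjusted p = 0.0127, limma), and Fn1, which encodes fibronectin (−1.05, adjusted p = 0.0205, limma), were also lower. Fn1 lost its call without 2D replicate 3 (0.0525), 3D replicate 2 (0.0607) or 3D replicate 3 (0.0844). Cdkn2b, a TGF-beta-induced cell cycle inhibitor gene, lay in the other direction, with 92.0 to 183 on 2D and 231 to 371 on 3D collagen and a log2 fold change of 1.04 (adjusted p = 0.0584, limma), and it was named after its value was seen. Summed smooth muscle markers, whose genes Acta2 and Tagln are also TGF-beta targets, ranged from 548 to 2736 CPM on 2D and from 308 to 1100 on 3D collagen. Their part in the results was not tested.

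**Figure D5:**
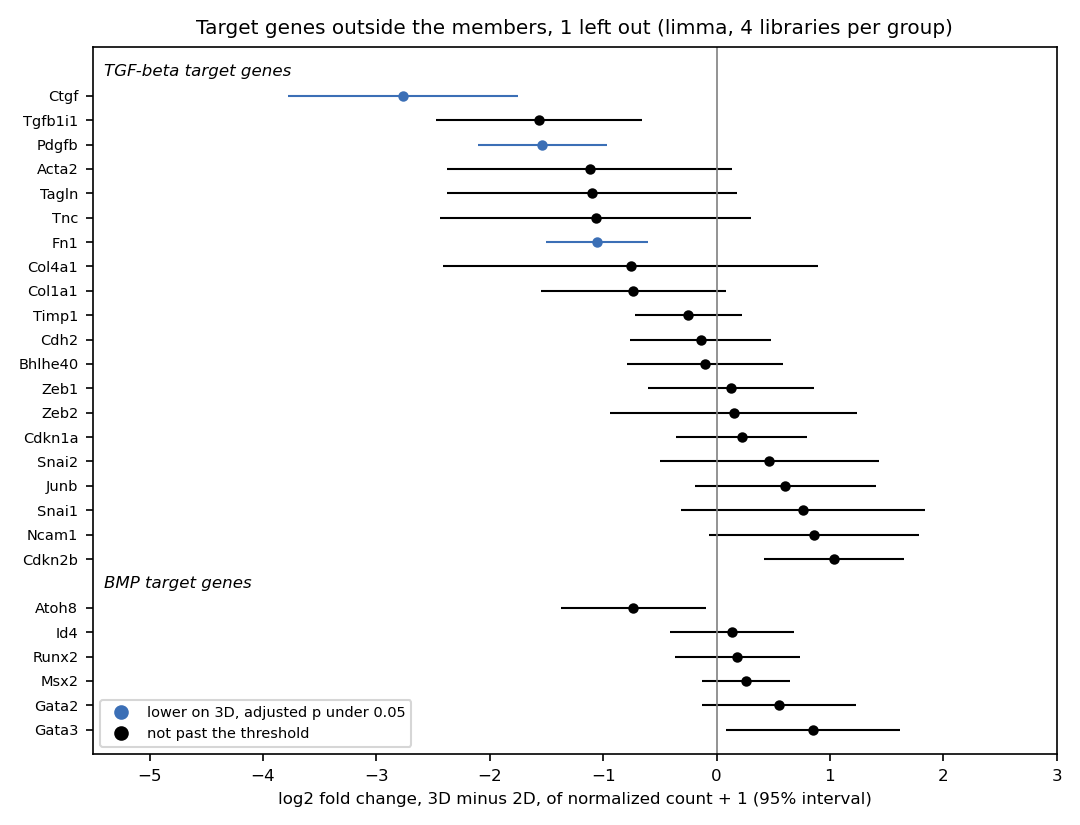
Log2 fold changes (3D minus 2D, horizontal axis) of tested TGF-beta and BMP target genes outside the 47 members, 1 of them left out, with points for the limma estimate and lines for its 95% interval. Ctgf, Pdgfb and Fn1 are lower on 3D collagen, and no BMP target passed the test.

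Of 9 tested genes of latent ligand storage and activation, Thbs1, which encodes the TGF-beta activator thrombospondin 1, fell from 6242 ± 2921 to 1159.8 ± 372 normalized counts (−2.35, adjusted p = 0.0157, limma, 0.0543 without 3D replicate 3). Of 3 further ligand-list genes tested, Bmp1, which encodes a procollagen-cleaving metalloprotease and not a ligand of the family, fell from 2886 ± 592 to 1627 ± 147 (−0.81, adjusted p = 0.0318, limma). Bmp1 lost its call without 2D replicates 1 (0.0628) or 3 (0.0673), or any one 3D library (adjusted p in limma from 0.0703 to 0.0940). None of 5 further receptors and co-receptors, 8 secreted antagonists, 23 intracellular regulators and 6 BMP targets passed with all 8 libraries in edgeR, or in limma on the normalized counts as deposited with no block. At an unadjusted p under 0.05 in limma there were 3 of the receptors, 0 of the antagonists, 7 of the intracellular regulators and 2 of the BMP targets, and DESeq2 called 1 receptor and 1 intracellular regulator. The most abundant of each were Neo1 (0.60, adjusted p = 0.0928, limma), Nbl1 (0.58, 0.240), Fkbp1a (−0.12, 0.674) and Msx2 (0.26, 0.389). After GC correction Nbl1 was 0.80 with an adjusted p of 0.0360 in limma, and without 2D replicate 3 Neo1 was 0.78 with an adjusted p of 0.0339. Fkbp1a turned to 0.058 with library size as the only scaling. These lists were chosen with earlier results of these data known.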

How the data were processed

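RNA from 8 libraries was isolated with TRIzol and Qiagen columns, per the labels' protocols. Per the submitters' processing notes, the authors used HTSeq 0.6.1p1, DESeq2 and the mm10 build. The aligner, annotation, strand setting and filters were not given in the sources used here. Each deposited value is a normalized signal. Divided by the smallest value above 0 in its library, taken as 1 read, 100% came out as whole reads (tolerance 0.001 reads). The inverse of that smallest value matched the median-of-ratios size factor recomputed from the reads, to within 3.4e-09. From these normalized counts, limma 3.58.1 (R 4.3.3) was fitted to log2(normalized count + 1), with a trended, robust prior variance and no covariates, over 11820 genes with at least 10 normalized counts in at least 4 libraries. Benjamini-Hochberg adjustment ran over all of them, with a threshold of 0.05. Depth was 15692699 to 25862036 reads per library. On simulated data limma recovered 20% of 2-fold and 80% of 4-fold changes, with 6 false calls among 11717 genes, so a 2-fold change is often missed. Each simulated gene was drawn independently, with no effect shared between the genes of a library beyond its size factor. Recovery and false calls in the real libraries may therefore differ.

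Alternatives were other scalings, pseudocounts and filters, edgeR 4.0.16 and DESeq2 1.42.0 on the recovered reads, no variance trend, a replicate block, a GC correction (lowess, span 30%), and leaving out each library. Positions, exon lengths and overlaps came from GENCODE M21 (GRCm38), promoters from RefSeq. The members and lists were chosen with earlier results of these data known. Values per library are given for members past the threshold, members whose groups did not overlap, and a fixed set of ligands, receptors, SMADs and targets. Of each further list, up to 4 called genes with the smallest adjusted p are named, or the most abundant gene if none was called; 1 gene that this rule took is not reported here. Marker sums over all 8 libraries were 8471 to 11745 CPM for oviductal epithelium, 3.44 to 19.5 for fibroblasts, 308 to 2736 for smooth muscle, 20.8 to 39.7 for leukocytes, 14.2 to 38.9 for endothelium, 1.52 to 9.59 for intestine and 0.105 to 23.3 for liver.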

Additional observations from a re-analysis of the deposited data

Results flagged for a closer look

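In 84 groups of 4 libraries, each a tested member on 1 form of collagen, the gap between an extreme library and its nearest neighbour was compared with the group's range by Dixon's criterion, which chance alone meets in about 5% of groups. It was met 6 times. Fst was low in 2D replicate 3 (732 normalized counts) and Smurf2 low in 2D replicate 4 (559). Smad2 was high in 2D replicate 1 (547), and Ltbp3 was high in 2D replicate 2 (37178). On 3D collagen, Ltbp1 was low in replicate 1 (619) and Grem1 high in replicate 4 (20.1). Fst without 2D replicate 3 kept its call, and Ltbp3 without 2D replicate 2 did not.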

How the results depend on the processing

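All 7 called members kept their direction in every alternative, 15 of the other tested members changed sign in at least 1, and Fstl3 also kept its call in each. Members called higher and lower numbered 1 and 6 in the main analysis. The higher count was 2 with TMM factors and upper-quartile scaling, 4 with library size only, 3 with edgeR and GC correction, 5 with DESeq2, and 0 without both libraries numbered 4, an alternative added after the data were seen. The lower count was 5 with edgeR, 8 with GC correction and 9 with DESeq2. Leaving out each library gave 0 to 1 higher and 1 to 7 lower members, 44 to 267 higher and 104 to 370 lower genes of the whole table, and 0 to 2 higher and 3 to 8 lower further pathway genes. Over all genes, 275 were higher and 401 lower. These were 499 higher with library size only, 708 and 871 with DESeq2, 481 and 605 with GC correction, and 171 higher without both libraries numbered 4. Library size only moved the median log2 fold change of all genes by 0.17 and the share of lower genes among those called from 59.3% to 38.9%. Further pathway genes, 0 higher and 6 lower, numbered 1 higher with library size only, 1 and 10 with DESeq2, 2 higher with GC correction and 11 lower without both libraries numbered 4.

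Of the directions, Tgfbr1 became −0.31 in edgeR, −0.35 in DESeq2 and −0.10 with GC correction. Smad7 became 0.016 with library size only and 0.052 with GC correction, Gdf15 0.021 with GC correction and 0.019 without both libraries numbered 4, and Fkbp1a 0.058 with library size only and 0.037 with GC correction. Leaving out each library gave log2 fold changes of −0.17 to 0.30 for Tgfb1, −0.20 to 0.34 for Tgfb3, −0.66 to 0.69 for Tgfbr1, −0.33 to 0.0030 for Gdf15 and −0.29 to 0.78 for Tgfbi. Without division by length, the ligand shares were 40.2% for Tgfb1 on 3D, 7.71% and 13.3% for Tgfb2 on 2D and 3D, and 49.1% and 46.5% for Tgfb3. The causes were not tested.

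Same-numbered libraries deviated together with correlations of −0.168, 0.369, 0.246 and 0.808 over genes for numbers 1 to 4, and not every library correlated best with its own number, so the numbers were not taken to pair them. With the replicate block, 3 members were higher and 8 lower, and 663 and 742 of all genes and 2 and 15 further pathway genes were called. Tgfb2 then had an adjusted p of 0.0102 in limma (0.0091 with GC correction added). The replicate block with GC correction, added after the data were seen, gave 4 and 11 members, 995 and 1077 genes and 5 and 16 further pathway genes, with log2 fold changes of −0.10 for Tgfbr1, 0.052 for Smad7, 0.021 for Gdf15 and 0.037 for Fkbp1a. Members with under 3 reads in a library were too shallow to compare.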
